A study of Mus musculus with 42 samples.

Results

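Myelin is the stack of glial membrane that insulates axons. In peripheral nerve and ganglia it is laid down by Schwann cells, each serving 1 axon segment, under the zinc finger factor EGR2, which acts with SOX10 to switch on genes of myelin proteins and lipids. In the brain and spinal cord it is made by oligodendrocytes, which share MBP, MAG, CNP and MAL with Schwann cells, whereas MOBP is known as an oligodendrocyte protein and PMP22 as a protein of peripheral myelin. In sensory ganglia the cell bodies of neurons are wrapped by satellite glia, and the myelinated fibres run between them.

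The genes described are 8 genes of myelin and myelinating Schwann cells: Mbp, Pmp22, Mag, Mobp, Egr2, Cnp, Mal and Prx. They were taken as every probe set that the platform annotation gives exactly 1 of these symbols, which found 7 of the 8 genes with 35 probe sets. Of these, 13 were among the 12488 probe sets of MG-U74Av2 and 22 among the 45101 of Mouse430_2. Mbp had 2 probe sets on MG-U74Av2 and 8 on Mouse430_2, Pmp22 had 2 and 1, Mag 2 and 1, Mobp 4 and 5, Egr2 1 and 2, Cnp 1 and 3, and Mal 1 and 2. Prx, which encodes the Schwann cell scaffold protein periaxin, has no expression values here.

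All 42 arrays came from BALB/c mice, an inbred strain, kept under standard housing; age and sex are not given. The nodose ganglion (NG) holds vagal afferent neurons of the viscera, and the dorsal root ganglion (DRG) holds spinal afferent neurons. Captured neurons, about 150 per sample cut out by laser microdissection and called visceral sensory neurons in the labels, gave 5 NG and 5 DRG samples on MG-U74Av2 and 11 NG and 9 DRG samples on Mouse430_2. Whole ganglia gave 7 NG and 5 DRG samples on MG-U74Av2. The sample descriptions call every sample laser captured, but the extraction protocol of those 12 names whole ganglia, and that protocol was followed. Each labelling used about 12 µg of RNA, which the labels call amplified for the captured MG-U74Av2 samples and total for the rest. Whether the Mouse430_2 RNA was amplified is not clear, since those samples also came from about 150 captured neurons. Separate animals are not named as the source of the samples, so p-values describe the spread among samples that may be technical replicates.

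Values are MAS5 signal intensities on a linear scale, set to the same trimmed mean on every array of an array type. Signals of different probe sets are not compared with each other. Differences are on the log2(signal + pseudocount) scale, which understates those of dim probe sets, with adjusted p from limma over all probe sets tested and a threshold of 0.05. A probe set was tested if it exceeded the 40th percentile of the array on as many arrays as the smallest group held. The lead probe set of a gene had the highest mean log2 signal among its probe sets on an array type. The 40th percentile was a scaled signal of 34.6 to 47.0 on MG-U74Av2 and of 16.8 to 28.6 on Mouse430_2. None of the neuron markers listed in the processing section that were on the arrays lay below this level on every array of any group. The Gapdh 3 prime over 5 prime log2 ratio, a measure of how far labelling reached along the RNA, averaged 6.63 ± 0.248 in captured NG and 6.96 ± 0.377 in captured DRG on MG-U74Av2 (SD, n = 5 each). It averaged 5.50 ± 0.448 in whole NG (SD, n = 7) and 5.33 ± 0.119 in whole DRG (SD, n = 5). On Mouse430_2 it averaged 6.70 ± 0.399 in captured NG (SD, n = 11) and 6.88 ± 0.461 in captured DRG (SD, n = 9).

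The upstream sequences of the members were read for motifs of the factors that drive myelin genes. RefSeq (GRCm38.p6) windows of 300 bases, from 250 before to 50 after the start, covered 7 of the 8 members, Prx included and Mbp left out, with 16 starts. Motifs were searched on both strands, and they were chosen with results of these data known. The EGR motif GCGNGGGCG lay in 0 of the 16 windows, against 5.55% of all 32851. The motif TATAAA also lay in 0 of 16, against 13.6% of all. The SOX-type motif ACAAAG lay in 4 of 16, in windows of Cnp, Mag and Mobp, against 18.7% of all windows. Some windows of Egr2, Mag and Pmp22 overlap, so the 16 are not separate sequences and 1 site can count more than once. The Mag matches, in overlapping windows, are the same site. Mobp held 6 copies, and no other of the 32851 windows held as many. The windows of Mobp, at chr9:120149492-120149791 on the plus strand, and of Cnp, at chr11:100574689-100574988 on the plus strand, are shown. They were chosen for called ganglion differences in opposite directions with no overlap of the groups, though in unlike samples. Mobp was lower in NG in whole ganglia on MG-U74Av2, and Cnp was higher in NG in captured neurons on Mouse430_2. The SOX-type matches are in capitals, as the reverse complement CTTTGT where on the other strand. No match of 1 motif overlapped a match of another.
Mobp: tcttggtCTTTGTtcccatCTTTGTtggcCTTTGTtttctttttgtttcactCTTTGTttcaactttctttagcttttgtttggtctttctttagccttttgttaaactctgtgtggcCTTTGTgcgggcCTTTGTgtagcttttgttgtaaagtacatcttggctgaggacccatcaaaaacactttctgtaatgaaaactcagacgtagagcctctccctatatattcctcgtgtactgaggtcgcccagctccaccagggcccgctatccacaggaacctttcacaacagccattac
Cnp: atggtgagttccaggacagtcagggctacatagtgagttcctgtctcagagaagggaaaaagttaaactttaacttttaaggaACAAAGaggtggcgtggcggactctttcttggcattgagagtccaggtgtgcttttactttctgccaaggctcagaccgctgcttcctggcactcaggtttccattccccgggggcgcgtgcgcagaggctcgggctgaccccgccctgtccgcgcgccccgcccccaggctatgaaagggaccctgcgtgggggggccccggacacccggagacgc
A match is a run of letters, and binding was not measured.

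The first comparison asked how myelin genes differed between whole NG and whole DRG. Mobp 100536_at was bright in every whole DRG and at background level in every whole NG. The second Mbp probe set, the lead Pmp22 probe set and Mobp were lower in NG, while 1 Mag probe set was higher, and the lead probe sets of Mbp, Egr2 and Mal did not pass the test. Of the 13 probe sets, 8 were tested; 1 was called higher in NG and 3 in DRG. Of all 7698 probe sets tested, 19.6% were called higher in NG and 15.8% higher in DRG, 35.4% in all. The groups did not overlap for 2 of the 8, against 18.1% of all. The calls in DRG and these 2 include Mobp, which passed the filter through DRG alone and so had to differ to be tested. The median difference of the 8 was -0.21, against 0.05 over all probe sets tested.

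Mobp encodes myelin-associated oligodendrocyte basic protein, a small protein of the compact sheath. Probe set 100536_at had a lowest, median and highest signal of 1.63, 3.30 and 5.16 in whole NG, against 449, 142, 164, 266 and 474 in the 5 whole DRG samples. All 5 whole DRG values lay far above all 7 NG values, which were below the 40th percentile of their arrays. Since the NG side was not above background, DRG over NG is given as at least 6.33-fold, from the 40th percentile of each NG array (limma adjusted p = 1.61e-09). Mobp passed the filter through DRG alone, so it had to differ to be tested, and the fitted log2 difference, -5.97 with a pseudocount of 1 and -2.58 with 50, is no measured size.

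The other 3 Mobp probe sets on MG-U74Av2, 99046_at, 99047_at and 99048_g_at, were not tested in this comparison. All 3 lay below the 40th percentile on every whole-ganglion array, with 99047_at the brightest at 14.7 ± 11.3 in NG (SD, n = 7) and 18.1 ± 10.7 in DRG (SD, n = 5). The DRG signal of Mobp was thus read by 1 of 4 probe sets on this array. Which transcripts each probe set reads is not given in the tables used.

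Oligodendrocyte markers were set beside Mobp. Of the 5 listed markers on the array, Mog, Nkx2-2 and Cldn11 lay below the 40th percentile on every whole DRG array. Myrf, a transcription factor of myelin genes in oligodendrocytes, averaged 83.0 ± 14.04 in whole NG (SD, n = 7) and 78.5 ± 17.0 in whole DRG (SD, n = 5) and was not called (limma adjusted p = 0.732). Without Mobp the summed signal of the list ran from 89.1 to 166 in whole NG and from 96.2 to 137 in whole DRG, so that the ganglia overlapped. Of the astrocyte list, Aqp4, a water channel, averaged 44.2 ± 5.15 in whole NG (SD, n = 7) and 93.0 ± 10.8 in whole DRG (SD, n = 5), lower in NG as Mobp was (log2 difference -0.91, limma adjusted p = 3.84e-05). It was the 1 called of 3 tested there, and its part and that of oligodendrocytes in the Mobp signal were not tested.

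Mbp encodes myelin basic protein, which holds the inner faces of the sheath together; from an upstream start the same locus also makes golli proteins, found in neurons and immune cells too. Probe set 96310_at had 108, 159 and 227 as lowest, median and highest signal in whole NG, against 319, 268, 394, 252 and 295 in whole DRG. Every DRG value was above every NG value, with a log2 difference of -0.94 (SE 0.161, limma adjusted p = 0.000211). The lead probe set, 96311_at, averaged 1864 ± 285 in NG (SD, n = 7) and 2266 ± 399 in DRG (SD, n = 5), a log2 difference of -0.28 that did not pass limma's test (adjusted p = 0.087), and the groups overlapped.

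Pmp22, whose dosage causes inherited demyelinating neuropathies, was read by 102395_at at 3349 ± 414 in whole NG (SD, n = 7) and 4011 ± 452 in whole DRG (SD, n = 5). The log2 difference of -0.26 passed narrowly (limma adjusted p = 0.0451) and the groups overlapped. Leaving out any 1 of 7 arrays ended that call, with the difference between -0.30 and -0.21 over all 12 omissions. Whole DRG 019, 037 or 070 and whole NG 020, 023, 026 or 039 were those arrays. The call was also lost in the joint fit of the 4 MG-U74Av2 groups (limma adjusted p = 0.0776), with no filter on dim probe sets (0.0682) and with eBayes without trend and robust estimation (0.0863). The second Pmp22 probe set, 161442_at, stayed at 8.56 or below on every whole-ganglion array and was not tested.

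Mag encodes a sialic acid-binding adhesion protein of the sheath layer facing the axon. Its probe sets differed in outcome. The lead, 161846_r_at, had 52.7, 74.6 and 81.6 as lowest, median and highest signal in whole NG, against 43.1, 46.8, 39.9, 42.7 and 58.2 in whole DRG. It was 0.50 higher in NG on the log2 scale (SE 0.142, limma adjusted p = 0.0109), with 1 DRG array reaching into the NG range. The DRG signals lay near the 40th percentile of those arrays, 34.6 to 41.3, and a stricter filter at the 60th percentile left this probe set out. With the deposited intensities left unscaled the difference was 0.19 (limma adjusted p = 0.618). The other, 102405_at, averaged 61.6 ± 16.5 in NG (SD, n = 7) and 62.1 ± 16.9 in DRG (SD, n = 5), and was not called (limma adjusted p = 0.989).

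Egr2, the regulator of the myelin programme, averaged 603 ± 81.2 in whole NG (SD, n = 7) and 491 ± 117 in whole DRG (SD, n = 5) by 102661_at. The log2 difference of 0.31 did not pass (limma adjusted p = 0.0942). Mal, a proteolipid of lipid rafts that sorts membrane proteins, averaged 441 ± 22.6 in whole NG (SD, n = 7) and 500 ± 79.3 in whole DRG (SD, n = 5) by 99089_at. Its log2 difference was -0.16 (limma adjusted p = 0.253). Cnp, the cyclic nucleotide phosphodiesterase of non-compact myelin, was read by 93072_at below the 40th percentile on all 12 arrays and was not tested.

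**Figure D1:**
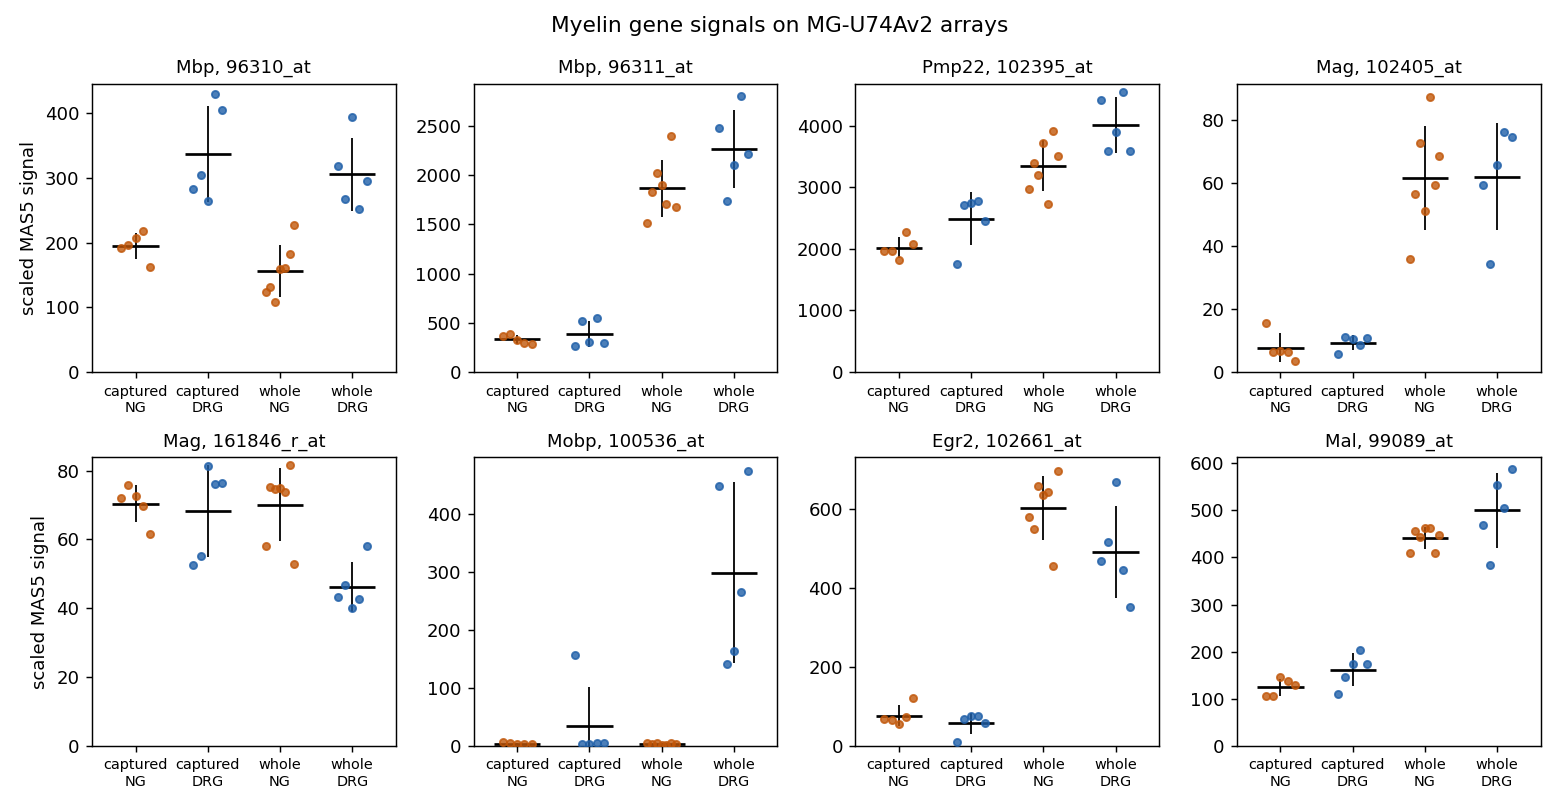
Scaled MAS5 signal (linear axis from 0) of 8 myelin probe sets on each MG-U74Av2 array, by group (captured NG, captured DRG, whole NG, whole DRG); points are arrays, horizontal lines means and vertical lines 1 SD. Mbp 96311_at, Mag 102405_at, Egr2 and Mal sit far lower in captured neurons than in whole ganglia, Mbp 96310_at and Mag 161846_r_at do not, and Mobp is bright on the 5 whole DRG arrays and on 1 captured DRG array.

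Captured neurons on MG-U74Av2 put the same question to samples of about 150 neurons. Only the second Mbp probe set was called among the myelin probe sets, lower in NG. Of the 13 probe sets 6 were tested; 0 were called higher in NG and 1 in DRG. Of all 7583 tested, 10.4% were called higher in NG and 11.3% higher in DRG, 21.8% in all. The groups did not overlap for that 1 probe set, against 16.3% of all. The median difference of the 6 was -0.22, against 0.05 over all probe sets tested.

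Mbp 96310_at had signals of 193, 197, 207, 217 and 163 in captured NG, against 283, 304, 265, 430 and 405 in captured DRG. Every DRG value was above every NG value, as in whole ganglia. The log2 difference was -0.74 (SE 0.164, limma adjusted p = 0.00499). The lead Mbp 96311_at had 370, 391, 327, 291 and 289 in captured NG, against 268, 514, 306, 551 and 291 in captured DRG. Its groups overlapped and the log2 difference of -0.15 did not pass (limma adjusted p = 0.649).

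Pmp22 102395_at averaged 2020 ± 167 in captured NG and 2491 ± 427 in captured DRG (SD, n = 5 each), a log2 difference of -0.29 (limma adjusted p = 0.136). DRG sample 003 had the lowest of the 5 DRG values, 1762, and without it the difference was -0.40 and passed (limma adjusted p = 0.0158). Egr2 averaged 76.4 ± 26.04 in captured NG and 56.8 ± 27.5 in captured DRG (SD, n = 5 each), a log2 difference of 0.49 that did not pass (limma adjusted p = 0.362). Mal averaged 124 ± 18.0 in captured NG and 161 ± 35.0 in captured DRG (SD, n = 5 each), a log2 difference of -0.34 (limma adjusted p = 0.199). Mag 161846_r_at averaged 70.3 ± 5.36 in captured NG and 68.3 ± 13.4 in captured DRG (SD, n = 5 each) and was not called.

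Mobp was not tested in captured neurons on this array because 1 array at most lay above the filter. Probe set 100536_at had signals of 6.43, 4.18, 2.86, 2.43 and 3.03 in captured NG, against 156, 2.62, 3.78, 5.12 and 4.04 in captured DRG. A single array, DRG sample 003, was bright, at a level within the whole DRG range. The other 4 captured DRG arrays lay in the range of NG.

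Captured neurons on Mouse430_2 gave the largest set of samples and of probe sets. Cnp stood out as higher in NG, by 2 of its 3 probe sets, and the lead Mal probe set and 2 of 8 Mbp probe sets were lower in NG. The lead probe sets of Mbp, Pmp22, Mag, Mobp and Egr2 did not pass the test. Of the 22 probe sets 17 were tested; 2 were called higher in NG and 3 in DRG. Of all 28107 tested, 9.72% were called higher in NG and 12.5% higher in DRG, 22.2% in all. The groups did not overlap for 2 of the 17, against 3.84% of all. The median difference of the 17 was -0.20, against -0.05 over all probe sets tested.

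Cnp 1437341_x_at, the lead, had 2445, 2868 and 3366 as lowest, median and highest signal in NG, against 1153, 1616 and 2098 in DRG. All 11 NG values lay above all 9 DRG values, by a log2 difference of 0.76 (SE 0.1, limma adjusted p = 1.63e-06). Cnp 1418980_a_at also separated the groups, with 224, 292 and 365 in NG against 95.2, 152 and 200.5 in DRG and a log2 difference of 0.92 (SE 0.137, limma adjusted p = 1.19e-05). The third, 1449296_a_at, averaged 69.8 ± 15.6 in NG (SD, n = 11) and 60.7 ± 13.5 in DRG (SD, n = 9), a log2 difference of 0.18 that did not pass (limma adjusted p = 0.494). The suffix of the lead marks probes that can also match other transcripts. On MG-U74Av2 the 1 Cnp probe set was below the filter on every array, so this difference could not be tested there.

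Mal 1417275_at had 111, 223 and 275 as lowest, median and highest signal in NG, against 248, 362 and 559 in DRG. The groups overlapped at 248 to 275, with a log2 difference of -0.84 (SE 0.187, limma adjusted p = 0.00143). The second, 1432558_a_at, lay in the same direction, at 51.4 ± 30.4 in NG (SD, n = 11) and 81.1 ± 25.96 in DRG (SD, n = 9), and did not pass (log2 difference -0.74, limma adjusted p = 0.0687).

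Mbp 1425263_a_at had 37.6, 49.0 and 124 as lowest, median and highest signal in NG, against 86.2, 128 and 293 in DRG. It was lower in NG by a log2 difference of -1.11 (SE 0.248, limma adjusted p = 0.0014), with overlapping groups. Mbp 1425264_s_at averaged 133 ± 36.2 in NG (SD, n = 11) and 215 ± 53.9 in DRG (SD, n = 9), with a log2 difference of -0.67 (SE 0.173, limma adjusted p = 0.00503). The lead, 1433532_a_at, averaged 1888 ± 326 in NG (SD, n = 11) and 2164 ± 338 in DRG (SD, n = 9), a log2 difference of -0.20 (limma adjusted p = 0.215). The other 5 Mbp probe sets, 1419646_a_at, 1436201_x_at, 1451961_a_at, 1454651_x_at and 1456228_x_at, had log2 differences from -0.31 to 0.18 and none passed. Of these, 1451961_a_at was dim, above the filter on 6 of 11 NG and 4 of 9 DRG arrays.

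Both Mbp calls were lost when only sample numbers absent from MG-U74Av2 were kept (6 NG and 4 DRG arrays), with log2 differences of -1.12 for 1425263_a_at (limma adjusted p = 0.0596) and -0.58 for 1425264_s_at (limma adjusted p = 0.196). The fit has fewer arrays by construction. Samples of 1 ganglion with the same number on both array types resembled each other more than other samples did, so the captured experiments are not independent of each other.

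The remaining leads were not called. Pmp22 1417133_at averaged 3529 ± 282 in NG (SD, n = 11) and 3701 ± 422 in DRG (SD, n = 9), a log2 difference of -0.06 (limma adjusted p = 0.603). Mag 1460219_at averaged 62.8 ± 25.5 in NG (SD, n = 11) and 71.8 ± 24.9 in DRG (SD, n = 9), with limma adjusted p = 0.617. Egr2 1427683_at averaged 38.7 ± 17.3 in NG (SD, n = 11) and 45.0 ± 20.01 in DRG (SD, n = 9), with limma adjusted p = 0.641. The other Egr2 probe set, 1427682_a_at, was above the filter on 2 arrays of each ganglion and was not tested.

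Mobp 1436263_at averaged 40.4 ± 21.0 in NG (SD, n = 11) and 55.7 ± 26.1 in DRG (SD, n = 9), a log2 difference of -0.44 that did not pass (limma adjusted p = 0.244). The other 4 Mobp probe sets were not tested. Of these, 1433785_at had 4.26, 7.21 and 10.6 as lowest, median and highest signal in NG, against 5.82, 16.2 and 110 in DRG. DRG sample 003 gave the 110, and sample 014, at 31.1, was next. Sample number 003 was thus the bright DRG array on both array types, while 1421010_at, 1441308_at, 1450088_a_at and the lead did not have it as their highest array.

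**Figure D2:**
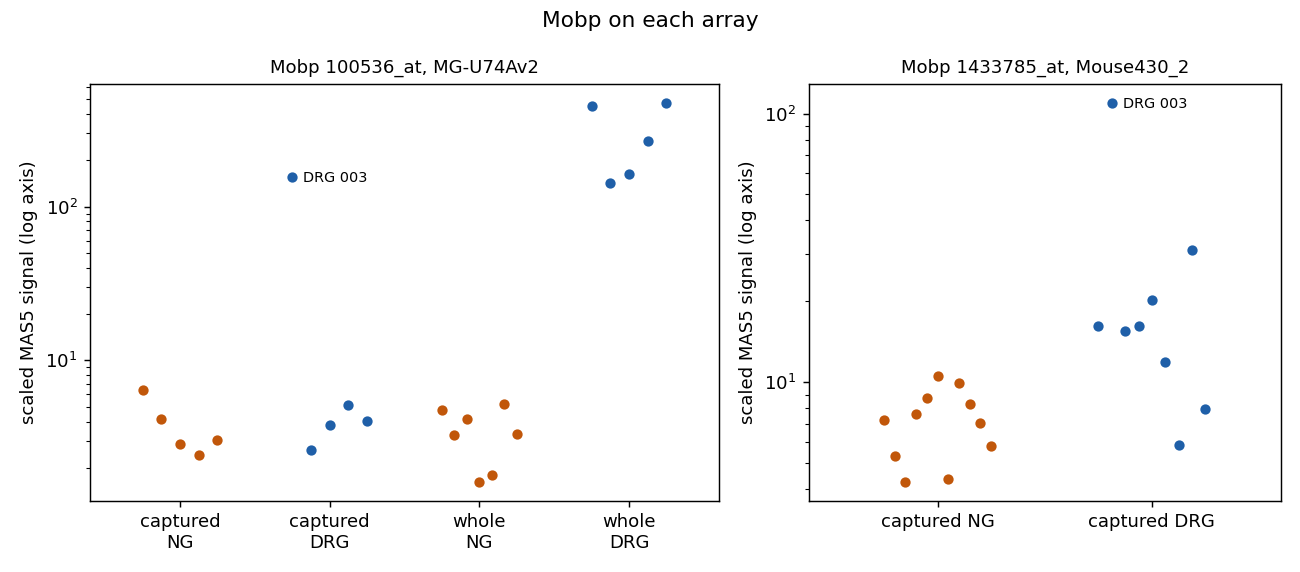
Scaled MAS5 signal (log axis) of Mobp 100536_at on each MG-U74Av2 array (left; captured NG, captured DRG, whole NG, whole DRG) and of Mobp 1433785_at on each Mouse430_2 array (right; captured NG, captured DRG), 1 point per array. DRG sample 003 had 156 on MG-U74Av2 and 110 on Mouse430_2, above every other captured array.

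**Figure D3:**
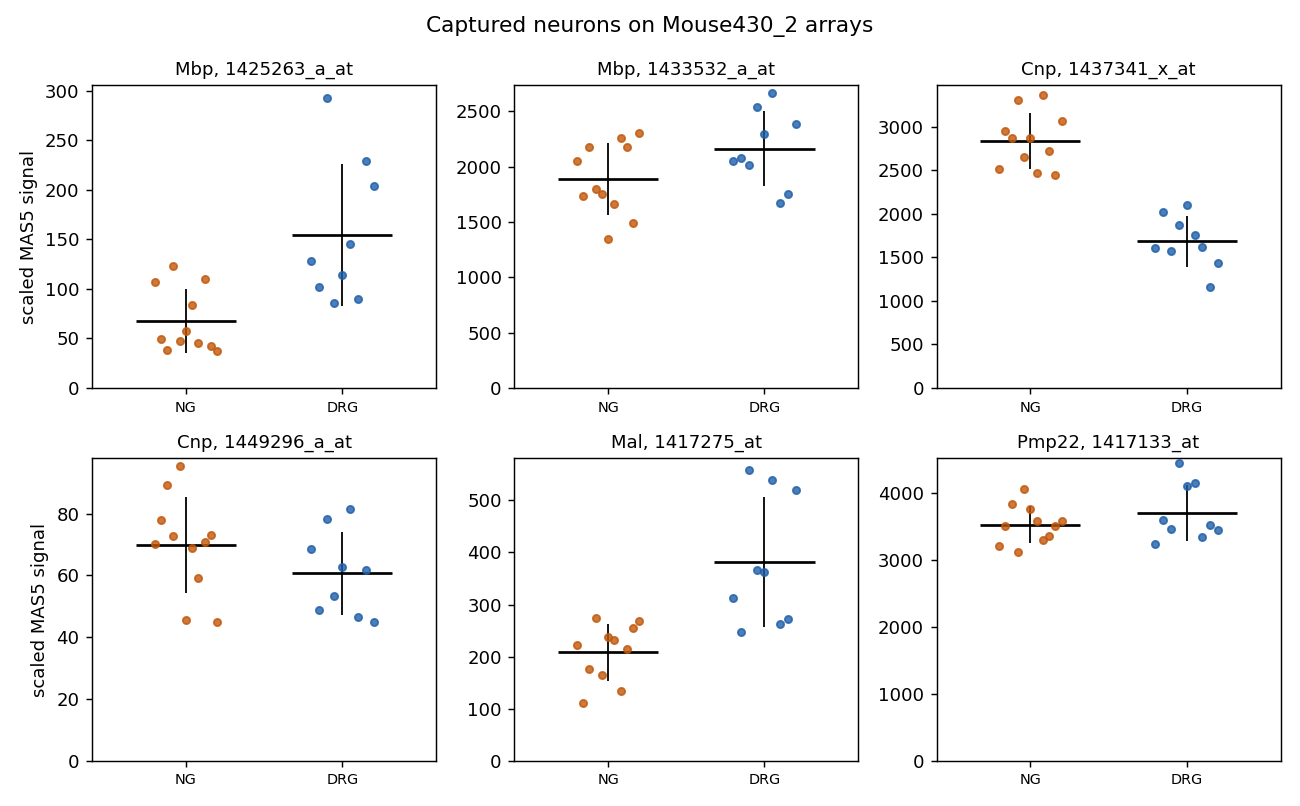
Scaled MAS5 signal (linear axis from 0) of 6 myelin probe sets in captured neurons on Mouse430_2, NG (n = 11) left and DRG (n = 9) right; points are arrays, horizontal lines means and vertical lines 1 SD. Cnp 1437341_x_at separates the ganglia with NG higher, Mal 1417275_at and Mbp 1425263_a_at are lower in NG with overlap, and Pmp22 1417133_at and Mbp 1433532_a_at overlap throughout.

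Most of the tested satellite glia markers were lower in NG in the captured experiments. On MG-U74Av2, 4 of the 6 tested were called lower in NG and 0 higher (median -1.13), where 11.3% of all were called lower. On Mouse430_2, 5 of the 7 tested were called lower in NG and 0 higher (median -0.76), where 12.5% of all were called lower. Sox2 lay below the 40th percentile on every captured NG array of MG-U74Av2. It passed the filter there through DRG alone and so had to differ to be tested. With Sox2 at its bound the MG-U74Av2 median was -0.67. Gja1, a gap junction protein, had a log2 difference of -2.28 on MG-U74Av2 and of -1.15 on Mouse430_2. Fabp7, a fatty acid-binding protein, was also lower in NG on both array types (-0.68 on MG-U74Av2 and -0.67 on Mouse430_2). Sox2, a transcription factor, was lower on Mouse430_2 (-1.06). S100b, a calcium-binding protein of glia, had a log2 difference of -1.59 on MG-U74Av2 (limma adjusted p = 9.44e-06) and of -1.22 on Mouse430_2 (limma adjusted p = 7.82e-08). Apoe was not called on either array type (0.03 on MG-U74Av2 and 0.20 on Mouse430_2). Glul was not called on MG-U74Av2 (0.09) and was lower on Mouse430_2 (-0.76), where Kcnj10 was not called (-0.48). The summed signal of the list ran from 9620 to 10868 in NG and from 11201 to 13665 in DRG on MG-U74Av2. It ran from 5282 to 7360 in NG and from 7871 to 10597 in DRG on Mouse430_2, so that the ganglia did not overlap on either array type. These lie beside the lower Mal and Mbp signals of NG and against the direction of Cnp, and their part in these results was not tested. Of the oligodendrocyte list, 6 were tested on Mouse430_2 and 1 was called. That was Tspan2, a tetraspanin, lower in NG (log2 difference -2.05, limma adjusted p = 7.86e-08). Mobp (-0.44), Myrf (-0.43), Mog (-0.26), Opalin (0.03) and Aspa (0.31) were not called and lay in both directions. Without Mobp the summed signal of the list ran from 231 to 549 in NG and from 558 to 860 in DRG on Mouse430_2, with no overlap. Tspan2, part of that sum, averaged 123 ± 58.9 in NG (SD, n = 11) and 495 ± 117 in DRG (SD, n = 9). In captured MG-U74Av2 samples the sum without Mobp overlapped, at 144 to 197 in NG and 134 to 172 in DRG. Olig1, Olig2, Cldn11 and Hapln2 lay below the filter on every array of both ganglia there, and Nkx2-2 also did so in DRG.

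**Figure D4:**
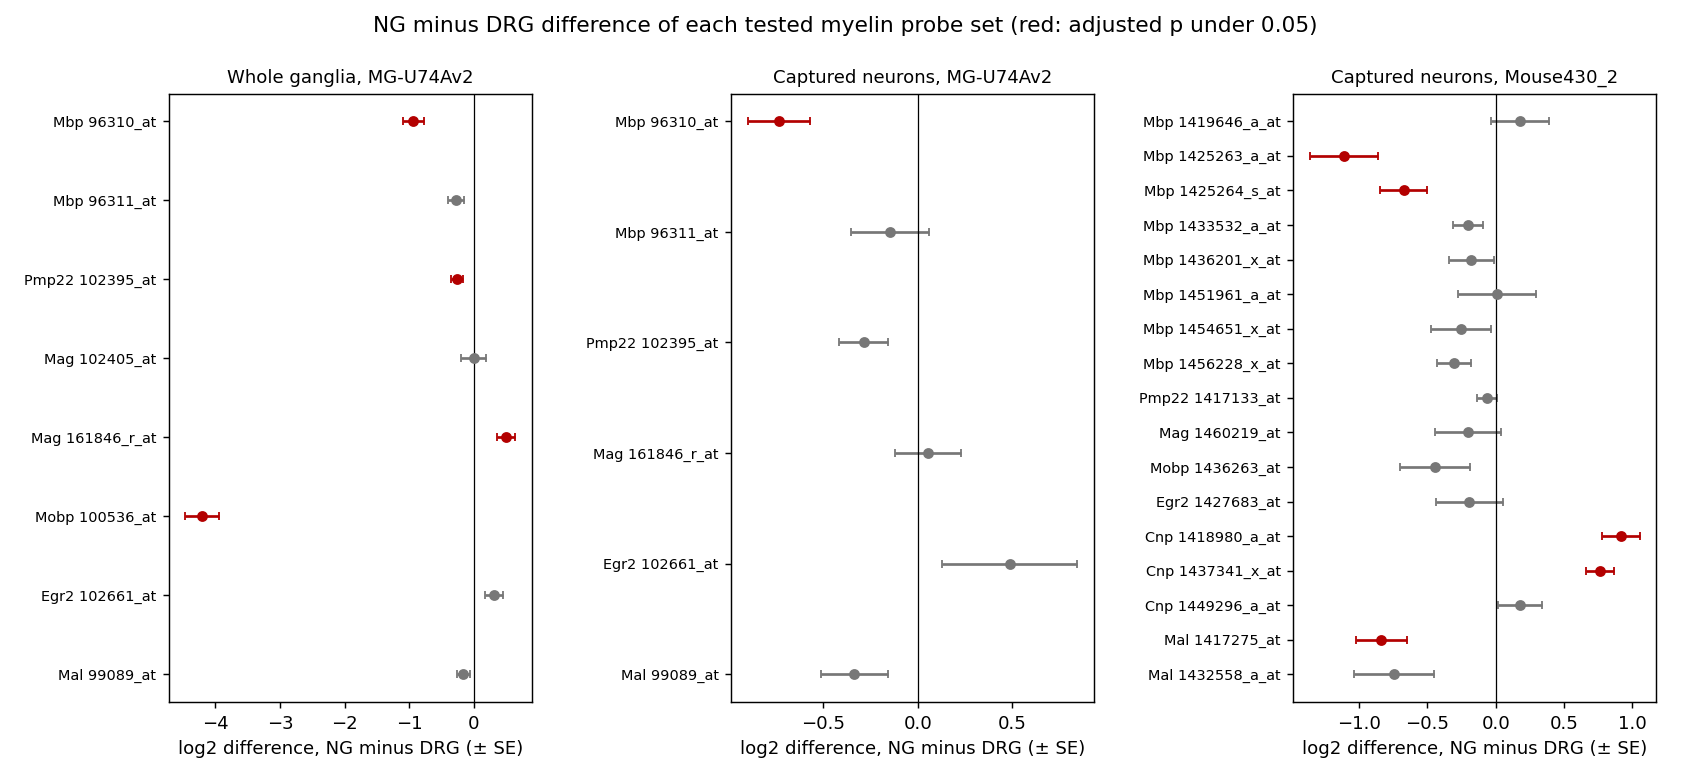
Log2 difference NG minus DRG (x axis, bars 1 SE) of each tested myelin probe set in whole ganglia (left), captured neurons on MG-U74Av2 (middle) and captured neurons on Mouse430_2 (right), with probe sets called by limma (adjusted p under 0.05) in red; the panels have x axes of different length. Mobp in whole ganglia is drawn at its fitted value, whose size depends on the pseudocount because whole NG was at background, and both called Cnp probe sets lie to the right of 0 on Mouse430_2.

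Probe sets of 1 gene were also compared within each array, as the log2 ratio of a probe set to the lead, because those of Mbp disagreed. These 17 exact two-sided permutation tests over samples were designed after values had been seen, and 6 passed Benjamini-Hochberg adjustment over the 17. The 2 of these on Mag 102405_at are not given as ratios, because that probe set was below the 40th percentile on every captured array. On Mouse430_2 the ratio of Mbp 1425263_a_at to the lead averaged -4.75 ± 0.646 in NG (SD, n = 11) and -3.84 ± 0.667 in DRG (SD, n = 9), a difference of -0.91 (exact permutation p = 0.00658, adjusted p = 0.0225). The ratio of Cnp 1449296_a_at to its lead averaged -5.22 ± 0.389 in NG (SD, n = 11) and -4.64 ± 0.391 in DRG (SD, n = 9), a difference of -0.59 (exact permutation p = 0.00387, adjusted p = 0.0219). In both cases the probe sets of 1 gene differed between the ganglia by unequal amounts. For Mbp 96310_at against 96311_at the difference was -0.66 in whole ganglia (exact permutation adjusted p = 0.0552) and -0.59 in captured neurons on MG-U74Av2 (exact permutation adjusted p = 0.06), and neither passed.

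Captured neurons were then set against whole ganglia of the same kind on MG-U74Av2, in a joint limma fit of the 4 groups. Capture, RNA amplification and experiment cannot be told apart in this design, and fewer glial cells in the sample cannot be told from less RNA per cell. Egr2, Mal, Pmp22, the lead Mbp probe set and 1 Mag probe set were lower in captured samples of both ganglia. In NG, 8 of the 13 probe sets were tested; 0 were called higher and 5 lower in captured samples. Of all 8309 tested in NG, 26.2% were called higher and 29.2% lower in captured samples, 55.3% in all. In DRG, 1 was called higher and 6 lower, where 22.9% of all were called higher and 24.3% lower, 47.2% in all. The groups did not overlap for 5 of the 8 in each ganglion, against 28.1% of all in NG and 37.3% of all in DRG. These counts include Mag 102405_at in both ganglia, and the lower calls in DRG include Mobp. Both passed the filter through whole ganglia alone and so had to differ to be tested. The median difference of the 8 was -1.23 in NG and -1.69 in DRG, or -0.65 and -1.14 with Mag 102405_at at its bound, against 0.02 and 0.03 over all probe sets tested.

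Egr2 had signals of 68.5, 65.9, 54.2, 71.7 and 121 in captured NG, against 456, 637 and 697 as lowest, median and highest in whole NG. In DRG it had 9.50, 67.2, 75.5, 75.1 and 56.7 in captured samples, against 470, 517, 669, 445 and 351 in whole ganglia. No captured array reached a whole ganglion of the same kind. The log2 difference was -2.84 in NG (SE 0.255, limma adjusted p = 8.21e-10) and -3.01 in DRG (SE 0.275, limma adjusted p = 2.53e-09).

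The lead Mbp 96311_at averaged 334 ± 45.9 in captured NG (SD, n = 5) and 1864 ± 285 in whole NG (SD, n = 7), a log2 difference of -2.44 (SE 0.161, limma adjusted p = 3.61e-12). In DRG it had 268, 514, 306, 551 and 291 in captured samples, against 2473, 1739, 2104, 2801 and 2213 in whole ganglia (log2 difference -2.57, SE 0.174, limma adjusted p = 2.74e-11). The groups were far apart in both ganglia. The second Mbp probe set, 96310_at, was not called in either. It averaged 195 ± 20.5 in captured NG (SD, n = 5) and 156 ± 40.5 in whole NG (SD, n = 7), a log2 difference of 0.33 (limma adjusted p = 0.0775). In DRG it averaged 337 ± 74.8 in captured samples and 306 ± 55.8 in whole ganglia (SD, n = 5 each), a log2 difference of 0.13 (limma adjusted p = 0.566).

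The within-array ratio of these Mbp probe sets, 96310_at over 96311_at, averaged -0.73 ± 0.223 in captured NG (SD, n = 5) and -3.51 ± 0.386 in whole NG (SD, n = 7). The difference of 2.77 had an exact permutation p = 0.00253 (adjusted p = 0.0215). In DRG the ratio averaged -0.15 ± 0.45 in captured samples and -2.84 ± 0.383 in whole ganglia (SD, n = 5 each), a difference of 2.69 (exact permutation p = 0.00794, adjusted p = 0.0225). These are the smallest p-values that 5 against 7 and 5 against 5 arrays allow. The signals of 1 gene thus changed unequally with capture in both ganglia.

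The Mag probe sets also had different outcomes. Probe set 102405_at averaged 7.70 ± 4.61 in captured NG (SD, n = 5) and 61.6 ± 16.5 in whole NG (SD, n = 7), with the captured side below the 40th percentile on every array. Whole over captured was at least 1.64-fold in NG (limma adjusted p = 1.64e-08). In DRG it averaged 9.35 ± 2.28 in captured samples and 62.1 ± 16.9 in whole ganglia (SD, n = 5 each), at least 1.59-fold (limma adjusted p = 3.24e-07). Mag 102405_at passed the filter through whole ganglia alone, so it had to differ to be tested. These p-values therefore give no support of their own. The lead 161846_r_at averaged 70.3 ± 5.36 in captured NG (SD, n = 5) and 70.1 ± 10.5 in whole NG (SD, n = 7), and was not called. In DRG it averaged 68.3 ± 13.4 in captured samples and 46.1 ± 7.15 in whole ganglia (SD, n = 5 each), a log2 difference of 0.46 (limma adjusted p = 0.0163). That call was lost without captured DRG 008 (log2 difference 0.40, limma adjusted p = 0.0504). It was also lost with Gapdh as a covariate, at about the same difference (0.46, limma adjusted p = 0.348), and without scaling, at a smaller one (0.22, limma adjusted p = 0.514). The Gapdh ratio did not overlap between captured and whole arrays, so the fit with it cannot tell the ratio from capture.

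Mal had 106, 106, 145, 137 and 128 in captured NG, against 409, 448 and 462 as lowest, median and highest in whole NG, and the groups lay far apart, with a log2 difference of -1.75 (SE 0.132, limma adjusted p = 3.55e-11). In DRG the difference was -1.58 (SE 0.142, limma adjusted p = 1.97e-09). Pmp22 differed by -0.72 in NG (SE 0.11, limma adjusted p = 4e-06) and by -0.70 in DRG (SE 0.118, limma adjusted p = 2.69e-05). Its captured signals still reached 1820 to 2270 in NG and 1762 to 2786 in DRG.

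Mobp was near background in both captured NG and whole NG, with no call (log2 difference 0.03). In DRG it was lower in captured samples (limma adjusted p = 8.19e-07), where 1 of 5 captured arrays, sample 003 at 156, lay above the filter and overlapped the whole DRG range of 142 to 474. Without that array it was also called (limma adjusted p = 5.54e-11). No size is given, since the fitted log2 difference was -4.79 with a pseudocount of 1 and -2.19 with 50, and Mobp was tested through whole DRG alone. With Gapdh as a covariate, the called differences of Egr2, Mal, Pmp22, Mbp 96311_at and Mag 102405_at kept their sign and passed in both ganglia, as did Mobp in DRG. The Gapdh log2 ratio was 6.42 to 6.93 in captured NG and 6.53 to 7.41 in captured DRG. It was 4.87 to 6.02 in whole NG and 5.18 to 5.50 in whole DRG. Captured and whole arrays did not overlap in it, so this fit cannot tell the ratio from capture. Mag 102405_at and Mobp had to differ to be tested, so their passing gives no support of its own.

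The interaction tested whether the ganglion difference was another in captured neurons than in whole ganglia. Of the 8 probe sets tested, 1 was positive and 0 negative. Of all 8309 tested, 7.71% were called positive and 10.5% negative, 18.2% in all. That 1 was Mobp (limma adjusted p = 0.000259, and 1.9e-08 without captured DRG 003). Captured NG, whole NG and 4 of 5 captured DRG arrays were at background for it, so the call restates the whole DRG signal, and its fitted size, 4.90 with a pseudocount of 1 and 2.19 with 50, is not a measured one. For Mbp 96310_at the interaction was 0.21 (SE 0.235, limma adjusted p = 0.592), which does not show that its ganglion difference was the same in both kinds of sample. The median over the 8 was 0.05, against -0.02 over all probe sets tested.

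By mean signal, the order of the 4 groups on MG-U74Av2 differed between genes. For Pmp22, Mal and Mbp 96311_at it was whole DRG, whole NG, captured DRG and captured NG from high to low. Of these neighbours, whole DRG and whole NG differed beyond the test for Pmp22 alone, and not in the joint fit, and captured DRG and captured NG for none. The middle neighbours, whole NG and captured DRG, were not tested against each other. For Egr2 it was whole NG, whole DRG, captured NG and captured DRG, with neither ganglion pair called. For Mbp 96310_at it was captured DRG, whole DRG, captured NG and whole NG, so that ganglion came before kind of sample, and the captured and whole groups of 1 ganglion were not called apart.

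Other genes of the myelin pathway were counted from listed genes, by lead probe set. Of 12 regulators of Schwann cell myelination, 8 were on MG-U74Av2 and 6 were tested against capture. In NG 1 was higher and 5 were lower in captured samples, with a median of -0.96, and in DRG also 1 and 5, with a median of -0.86. Nab2, a cofactor of EGR proteins, was below the 40th percentile on every captured array, so whole over captured is given as at least 1.38-fold in NG and at least 1.60-fold in DRG. With Nab2 at its bound the medians were -0.93 in NG and -0.53 in DRG. Of the genes measured on both sides, those with the largest fall in NG were Erbb3, the receptor of axonal neuregulin (-1.73), Nab1, a relative of Nab2 (-0.98), and Dhh, the hedgehog ligand of Schwann cells (-0.94). In DRG they were Erbb3 (-1.29), Sox10, the glial factor that acts with EGR2 (-1.21), and Dhh (-0.51). Yy1, a broadly expressed zinc finger factor, was higher in captured samples by 0.95 in NG and 0.54 in DRG.

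Between the ganglia the same list had medians of 0.05 in whole ganglia, -0.13 in captured MG-U74Av2 samples and -0.22 on Mouse430_2. Of the 6 tested in whole ganglia, 0 were higher and 1 lower in NG, Yy1 (-0.47), where 35.4% of all probe sets tested were called. Of the 5 tested in captured MG-U74Av2 samples, 0 were higher and 1 lower in NG, Dhh (-0.44), where 21.8% of all were called. Of the 11 tested on Mouse430_2, 2 were higher and 2 lower in NG, where 22.2% of all were called. There Zeb2, a repressor needed for Schwann cell maturation, was higher in NG (1.01), as was Nab2 (0.61). Adgrg6, the adhesion receptor that starts myelination, was lower (-0.76), as was Nrg1, the axonal signal for myelin thickness (-0.70).

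Of 13 structural genes of peripheral myelin, 3 were tested on MG-U74Av2 in whole ganglia and 6 on Mouse430_2. Cd9, a tetraspanin of Schwann cells and other cells, was lower in NG in whole ganglia (-0.33) and among captured MG-U74Av2 samples (-1.14). None of the 6 on Mouse430_2 was called by limma at the adjusted threshold, and their median was -0.19. Itgb4, the laminin receptor subunit of the outer Schwann cell surface, was lower in captured samples (-2.32 in NG and -2.04 in DRG), whereas Cd9 was higher in captured DRG (0.58, limma adjusted p = 0.000231) and not called in NG. In the myelin lipid list, with medians of 0.07, 0.44 and 0.08 in the 3 ganglion comparisons, Hmgcs1 and Fdft1 of cholesterol synthesis were higher in NG in whole ganglia (0.35 and 0.44) and among captured MG-U74Av2 samples (0.44 and 0.46). On Mouse430_2 Fdft1 (0.25) and Sqle (0.21) were higher in NG, and Ugt8a, which makes the galactolipids of myelin, was lower (-1.32, limma adjusted p = 0.000396). Against capture the lipid list had 3 of 5 higher and 1 lower in NG (median 0.29) and 2 higher and 2 lower in DRG (median 0.22). Fdft1 (0.41 in NG and 0.39 in DRG) and Hmgcs1 (0.45 and 0.37) were higher in captured samples of both ganglia and Sqle in NG (0.29). Cers2, a ceramide synthase, was lower in both (-0.67 and -0.91), and Dhcr7 in DRG (-0.56).

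Markers of other cell types also differed with capture, beside the lower signals of the myelin genes, and their part in these was not tested. Fibroblast markers were lower in captured samples for 5 of 5 in NG (median -2.64) and 4 of 5 in DRG (median -2.24). Satellite glia markers were lower for 4 and higher for 1 of 6 in NG (median -0.79), and lower for 1 and higher for 2 of 6 in DRG (median 0.12). Neuron markers were lower for 6 and higher for 3 of 9 in NG (median -0.75), and lower for 3 and higher for 3 of 9 in DRG (median -0.27). Markers of non-myelinating and immature Schwann cells were lower for 3 and higher for 1 of 4 in NG, and lower for 2 and higher for 2 of 4 in DRG. Endothelium markers were lower for 2 and higher for 1 of 4 in NG and lower for 1 of 4 in DRG. Macrophage markers were lower for 2 of 3 in NG and 1 of 3 in DRG.

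Between the whole ganglia, markers of non-myelinating and immature Schwann cells were higher in NG for 2 and lower for 1 of 4. Ncam1, an adhesion molecule, was higher (0.87) and Jun, a factor of injured Schwann cells that neurons also express, was lower (-0.91). Endothelium markers were higher in NG for 3 of 4, with Eng at 0.93, and macrophage and fibroblast markers each for 1, C1qa and Lum (0.65). C1qa averaged 72.7 ± 9.91 in whole NG (SD, n = 7) and 27.8 ± 19.3 in whole DRG (SD, n = 5). Its DRG mean lay below the 40th percentile of those arrays, 34.6 to 41.3, so its fitted log2 difference of 1.22 is not a firm size. Satellite glia markers were higher in NG for 2 of 6, Sox2 (0.86) and Apoe (0.43), and lower for 1, S100b (-0.82). Neuron markers were higher for 2 and lower for 2 of 9.

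Within groups, the members did not vary as 1 block. After group means were removed, Pearson's r between lead probe sets ran from -0.17 to 0.49 over 21 pairs on the 20 Mouse430_2 arrays (median 0.17) and from -0.67 to 0.74 over 15 pairs on the 12 whole-ganglion arrays (median 0.17). The arrays share scaling and RNA quality, so these values are descriptive. The genes most like each lead, 3 per member, held no other member. On Mouse430_2 they were Prkag2, Asb1 and Rnf227 for Mbp (r = 0.76 for each), Cox19, Aar2 and Nr2f6 for Cnp (r from 0.76 to 0.78), Ttc39b, Senp1 and Sike1 for Mal (r from 0.77 to 0.78) and Prkar1b, Dip2c and Rhou for Pmp22 (r from 0.82 to 0.87). In whole ganglia they were Polrmt, Smoc1 and Strn4 for Mobp (r from 0.84 to 0.89), Clic4, Sparc and Atp6v0a2 for Mbp (r from 0.87 to 0.92), and Nsmce4a, Ggh and Nefl for Egr2 (r from 0.89 to 0.93). Each name is the top of a ranking over all probe sets tested, on few arrays.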

How the data were processed

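The authors deposited 1 intensity per probe set and array, on a linear scale, made with MAS5 per the submitters' processing notes, with no version given in the sources used here. Deposited arrays differed in brightness (2% trimmed mean 84.2 to 200.5 on Mouse430_2, 174.9 to 408.3 on MG-U74Av2), so arrays were scaled to a common trimmed mean within each array type. The pseudocount was the 20th percentile of the arrays fitted, 7.48 on Mouse430_2, 11.7 for whole ganglia, 11.01 for captured MG-U74Av2 samples and 11.4 for the joint fit. Each comparison was fitted across all probe sets that passed the filter in R 4.3.3 by lmFit and a robust, trended eBayes of limma 3.58.1, two-sided, with Benjamini-Hochberg adjustment. On simulated data with 100 probe sets changed by a log2 difference of 1, the fits recovered 91% (whole ganglia), 74% (captured, MG-U74Av2), 67% (Mouse430_2) and 90% (captured against whole NG). Without detection calls, not used here, dim signals may be background; precision is limited by array number.

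Groups came from the sample titles and protocols. Titles also carry sample numbers, and same-numbered NG and DRG samples did not deviate together in every pair, so numbers were not taken as pairs. The members, lists and tests were chosen with earlier results of these data known. Every probe set of a member is reported; of the myelin pathway lists, up to 3 genes per direction and comparison with the largest called difference measured on both sides are named; lists of other cell types are given mainly by counts, with a few genes chosen after their values were seen. The neuron list was Rbfox3, Elavl4, Snap25, Uchl1, Prph, Tubb3, Nefl, Nefm, Nefh and Stmn2, the satellite glia list Fabp7, Kcnj10, Glul, Gja1, Cdh19, S100b, Sox2 and Apoe, and the fibroblast list Col1a1, Col1a2, Col3a1, Dcn and Lum. Alternatives changed the scaling, pseudocount, filter, variance model, Gapdh covariate, samples in the fit, replicate block and single arrays.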

Additional observations from a re-analysis of the deposited data

Results flagged for a closer look

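In captured neurons on MG-U74Av2, DRG sample 003 lay apart from the other 4 DRG samples for 2 myelin probe sets. Pmp22 102395_at was 1762 there, against 2456 to 2786 on the other 4 arrays, and Egr2 102661_at was 9.499, against 56.7 to 75.5. The same array was the bright one for Mobp 100536_at, at 156. Chance flags about 1 in 20 groups, and 45 combinations of probe set and group were examined. On Mouse430_2 the DRG sample numbered 003 had a Pmp22 signal of 3593 and an Egr2 signal of 26.2, within the range of the other DRG samples.

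The NG minus DRG difference of Mobp 100536_at differed between captured neurons and whole ganglia, by 3.53 on the log2 scale in the interaction test of limma (adjusted p = 0.000259). Its size is not a measured one, since captured NG, whole NG and 4 of 5 captured DRG arrays were at background and the probe set was tested through whole DRG alone; it was 4.90 with a pseudocount of 1 and 2.19 with 50.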

How the results depend on the processing

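Of 1646 results of single probe sets under 58 settings, 1547 kept their direction and their side of the threshold, 23 came to pass it, 16 no longer passed it, and 60 changed sign, none of them past the threshold under either setting. In whole ganglia 1 probe set was called higher in NG, and 0 without scaling, 0 under the stricter filter, 2 with the Gapdh covariate and 1 to 2 when single arrays were left out; 3 were called higher in DRG, and 2 to 4 under all alternatives. In captured neurons on MG-U74Av2, 1 was called higher in DRG, and 1 to 2 without single arrays. On Mouse430_2, 3 were called higher in DRG, 5 with array weights and 1 with only the sample numbers absent from MG-U74Av2. Against capture in DRG, 1 was higher in captured samples, and 0 without scaling, 0 under the stricter filter, 0 with the Gapdh covariate and 0 to 1 without single arrays. In NG, 0 were higher, 1 with the same median on every array, 1 with quantile normalization and 0 to 1 without single arrays; that probe set was Mbp 96310_at. The stricter filter and the smaller set of arrays remove probe sets or arrays by construction; for the others the cause was not tested.

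With the sample number as a replicate block, captured neurons on MG-U74Av2 gave 0 higher and 1 lower in NG, and Mouse430_2 gave 2 and 4, the added one being Mal 1432558_a_at (-1.10, limma adjusted p = 0.0414). Same-numbered NG and DRG samples correlated from -0.11 to 0.11 over 4 pairs and from -0.15 to 0.16 over 7 pairs, and 1 pair in each correlated best with its own number. Whole NG and whole DRG shared 1 number, so no block could be fitted there. Mbp 96311_at in whole ganglia passed without scaling, with the same median, with the Gapdh covariate and without whole DRG 026 or whole NG 046. Dim probe sets are limited by background, and small differences by the number of arrays.

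The sign changes were these, as log2 differences. In whole ganglia, Egr2 102661_at was -0.055 without scaling, and Mag 102405_at was 0.13 with array weights and -0.16 to 0.093 without single arrays. In captured MG-U74Av2 samples, Mag 161846_r_at was -0.052 with the Gapdh covariate, -0.016 without scaling, -0.034 with the replicate block and -0.0245 to 0.11 without single arrays. On Mouse430_2, the sample numbers absent from MG-U74Av2 gave 0.029 for Egr2 1427683_at, 0.28 for Mag 1460219_at, 0.019 for Mbp 1433532_a_at, 0.27 for Mbp 1436201_x_at and 0.30 for Mbp 1454651_x_at, and the numbers on both gave -0.30 for Mbp 1419646_a_at and -0.20 for Mbp 1451961_a_at. Mbp 1451961_a_at was also -0.016 with the Gapdh covariate, -0.061 without scaling, -0.019 with a pseudocount of 50, -0.19 with the replicate block and -0.13 to 0.19 without single arrays, and Pmp22 1417133_at was 0.088 with the same median. Captured minus whole, Mbp 96310_at was -0.16 in DRG without scaling. In NG, Mag 161846_r_at was -0.0198 with array weights and -0.043 to 0.052 without single arrays, and Mobp 100536_at was -0.73 with the Gapdh covariate, -5e-04 with array weights and -0.027 to 0.065 without single arrays. The interaction was -0.018 for Egr2 102661_at with a pseudocount of 50 and -0.21 to 0.30 without single arrays, 0.14 for Mag 102405_at without scaling and -0.27 to 0.025 without single arrays, 0.12 for Mal 99089_at without scaling, and -0.027 for Mbp 96311_at with array weights. For Pmp22 102395_at it was 0.0304 with the Gapdh covariate, 0.28 without scaling, 0.046 with quantile normalization, 0.10 with the same median and -0.14 to 0.022 without single arrays. The cause was not tested.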
